A study of Homo sapiens with 6 samples.

Results

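The ERBB receptors and the EGF-like growth factors that bind them were followed in HepG2 cells after knockdown of KIF11. The 8 genes described, taken by symbol, were the receptors EGFR, ERBB2 and ERBB3 and the ligands AREG, EREG, HBEGF, TGFA and BTC, out of 20030 genes in the count table, and 7 of the 8 were among the 12369 genes with enough reads to be tested. HepG2 is an established human hepatoma line. Both groups were HepG2 carrying a lentiviral short hairpin RNA, a control hairpin in sh-ctrl (3 libraries) and a hairpin against KIF11, the mitotic kinesin that separates the spindle poles, in sh-KIF11 (3 libraries). Poly(A) RNA was sequenced, and the labels name neither a time point nor a second hairpin against KIF11, so the effect of this hairpin and that of KIF11 loss cannot be told apart.

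ERBB receptors are tyrosine kinases that work in pairs. EGFR and ERBB3 bind ligands, ERBB2 has no known ligand and serves as the preferred partner of the others, and ERBB3 has little kinase activity of its own and signals mainly to PI3K through its partner. The ligands are made as membrane-bound precursors and are cut free by ADAM proteases, after which AREG and TGFA bind EGFR, whereas EREG, HBEGF and BTC bind both EGFR and ERBB4. In liver these ligands are known for their part in regeneration after injury.

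Library totals were between 18167773 and 19583282 counts. KIF11 itself stood at 116 ± 5.01 CPM (counts scaled to library size with TMM factors; SD, n = 3) in sh-ctrl and 68.8 ± 5.16 in sh-KIF11 (log2 fold change -0.75), so the targeted mRNA was lower but still present. All 9 hepatocyte markers examined were detected, and 8 of them passed the test as lower in sh-KIF11, with a summed level of 32203 to 33763 CPM in sh-ctrl and 14360 to 15499 CPM in sh-KIF11. Of markers of other cells, 4 of 7 fibroblast, 3 of 5 endothelial and 2 of 5 leukocyte genes were at 3 counts or fewer in every library, among them the collagen-binding DCN and the pan-leukocyte PTPRC, which had 0 counts and at most 1 count. The summed level went from 2.55 to 3.93 CPM in sh-ctrl to 1.40 to 2.04 CPM in sh-KIF11 for the fibroblast list, from 3.16 to 3.56 CPM to 4.69 to 4.98 CPM for the endothelial list, and from 2486 to 2984 CPM to 508 to 639 CPM for the leukocyte list, which LYZ dominated (2613 and 511 CPM). The part of these shifts in the results was not tested, and in bulk RNA fewer cells that make a transcript and less transcript per cell cannot be told apart.

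AREG and EREG, the members with the largest differences between the groups, are neighbours on chromosome 4. In GRCh38, EREG spans 74365145 to 74388749 and AREG 74445136 to 74455005, with 56386 bases between them, and BTC lies 289753 bases beyond AREG, from 74744759 to 74794523. HBEGF lies on chromosome 5 (140332843 to 140346603), TGFA on chromosome 2 (70447284 to 70553826), EGFR on chromosome 7 (55019017 to 55211628), ERBB3 on chromosome 12 (56080108 to 56103505) and ERBB2 on chromosome 17 (39688094 to 39728658). The 250 bases before the annotated start (RefSeq, GRCh38.p14, plus strand) are printed for the 3 members that rose, 5′ to 3′, with TATAAA and the cyclic AMP response element letters TGACGTCA in capitals. The windows are chr4:74444886-74445135 for AREG, chr4:74364895-74365144 for EREG and chr7:55018767-55019016 for the first of the EGFR starts.
AREG: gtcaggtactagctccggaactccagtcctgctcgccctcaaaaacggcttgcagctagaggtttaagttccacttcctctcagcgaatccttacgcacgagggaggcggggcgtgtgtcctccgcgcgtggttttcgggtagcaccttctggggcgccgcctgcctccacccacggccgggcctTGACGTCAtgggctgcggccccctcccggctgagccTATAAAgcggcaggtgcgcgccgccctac
EREG: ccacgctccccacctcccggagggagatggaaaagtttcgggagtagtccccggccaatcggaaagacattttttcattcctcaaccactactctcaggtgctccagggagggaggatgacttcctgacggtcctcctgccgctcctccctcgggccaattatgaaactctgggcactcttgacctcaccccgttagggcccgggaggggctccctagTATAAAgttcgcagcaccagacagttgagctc
EGFR: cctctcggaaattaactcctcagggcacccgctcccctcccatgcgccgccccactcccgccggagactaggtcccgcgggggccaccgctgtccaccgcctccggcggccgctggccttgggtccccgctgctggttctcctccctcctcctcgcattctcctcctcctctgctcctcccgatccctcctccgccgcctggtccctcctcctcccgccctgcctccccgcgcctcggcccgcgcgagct

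Sets of letters were searched on both strands in the 250 bases before each of 35116 annotated starts, which included all members but ERBB3. TATAAA was found 29 bases before the AREG start and 32 bases before the EREG start, and in 10.7% of all windows. TGACGTCA was found 65 bases before the AREG start, in 1.65% of all windows, and in no other member. The printed EGFR window held neither and had a GC content of 73.6%, against 65.2% for AREG and 58.0% for EREG. A second EGFR start held TATAAA 146 and 36 bases upstream and the AP-1 letters TGAGTCA or their reverse complement at 232 and 136 bases. TGAGTCA was found in 4.20% of all windows. GGGCGG, the core of a GC box, was found at AREG, HBEGF, TGFA and the first EGFR start and in 42.6% of all windows. These matches describe the letters alone, and binding at them was not measured.

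Among the receptors, EGFR rose in sh-KIF11 and ERBB3 fell, while the small decrease of ERBB2 depended on how the libraries were scaled. EGFR, the receptor for AREG and TGFA, had 169, 147 and 179 counts in sh-ctrl against 269, 318 and 301 in sh-KIF11, or 9.48, 8.15 and 10.6 CPM against 13.4, 15.4 and 15.3 CPM. Every sh-KIF11 library lay above every sh-ctrl library. The mean went from 9.41 ± 1.23 to 14.7 ± 1.10 CPM (SD, n = 3 each), which is 1.56-fold, with a log2 fold change of 0.64 (standard error 0.110, 95% interval 0.42 to 0.87) and an adjusted p of 2.21e-06 in the quasi-likelihood test of edgeR, adjusted by Benjamini-Hochberg over all tested genes. Larger positive changes were seen for 14.1% of the tested genes.

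ERBB3, which carries many docking sites for PI3K, was the most abundant receptor mRNA. It stood at 268, 285 and 267 CPM in the sh-ctrl libraries and at 216, 208 and 212 CPM in the sh-KIF11 libraries, so the groups did not overlap. Its mean fell from 273 ± 9.95 to 212 ± 4.19 CPM, a log2 fold change of -0.37 (standard error 0.0487, 95% interval -0.47 to -0.27, adjusted p = 1.27e-08, edgeR). It passed the test under all 15 alternative settings, between -0.39 and -0.14.

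ERBB2, the shared partner receptor, gave 144, 145 and 134 CPM in sh-ctrl and 133, 125 and 123 CPM in sh-KIF11. The highest sh-KIF11 library and the lowest sh-ctrl library were almost level, without overlap. The means were 141 ± 6.37 and 127 ± 5.70 CPM, and the log2 fold change was -0.15 (standard error 0.0522, 95% interval -0.26 to -0.05, adjusted p = 0.00942, edgeR). Scaling by library totals alone turned it to 0.078 (adjusted p = 0.173, edgeR), and the FPKM values gave 0.014 (adjusted p = 0.826, limma on log2(FPKM + 1)). Without the second sh-ctrl library or the third sh-KIF11 library the value was -0.13 and missed the threshold (adjusted p = 0.0705 and 0.0642, edgeR). PGAP3 and MIEN1 overlap ERBB2 on the opposite strand in GENCODE and had log2 fold changes of -0.28 and -0.31. EGFR-AS1 overlaps EGFR in the same way, AC034102.2 overlaps ERBB3 on the same strand, and since the strand setting of the counting is not given in the sources used here, reads of such partners cannot be told apart.

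The balance between ERBB3 and ERBB2 does not depend on scaling, because both come from the same library. On the FPKM scale, which corrects for transcript length, the ratio of ERBB3 to ERBB2 was 1.84, 2.003 and 1.98 in sh-ctrl against 1.61, 1.63 and 1.69 in sh-KIF11. All 3 sh-KIF11 ratios were below the sh-ctrl ratios, with means of 1.64 ± 0.0404 and 1.94 ± 0.0892 (p = 0.1 in a two-sided exact permutation test over libraries, the lowest value that 3 against 3 can give). The ratio of ERBB2 to EGFR fell likewise from 18.6 ± 3.29 to 11.3 ± 1.49, again without overlap. EGFR remained a minor receptor mRNA, at 1.84% ± 0.337 of the summed receptor FPKM in sh-ctrl and 3.28% ± 0.361 in sh-KIF11.

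**Figure D1:**
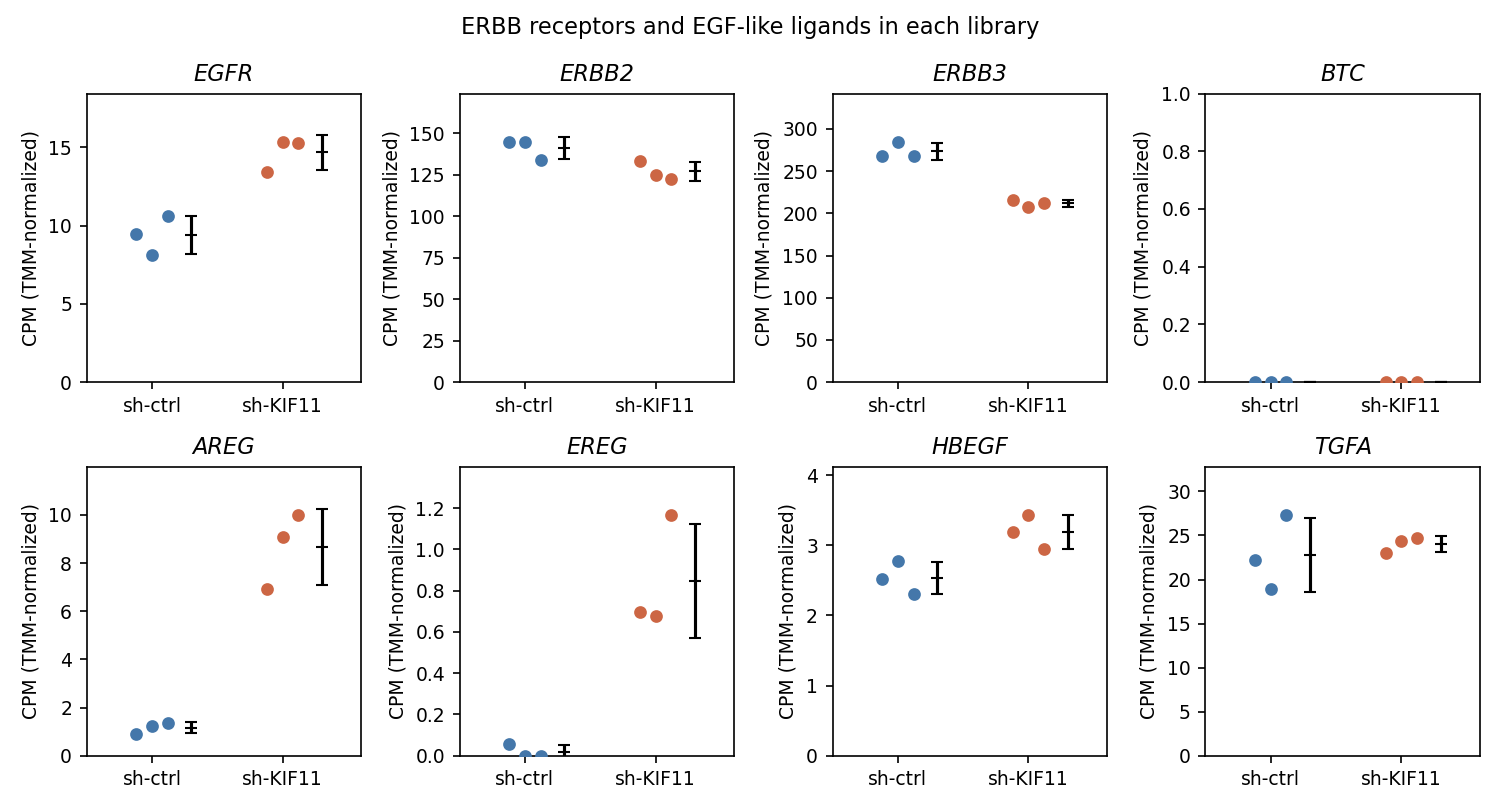
TMM-normalized CPM of each of the 8 genes, 1 panel a gene, with sh-ctrl libraries in blue and sh-KIF11 libraries in orange; the black mark beside each group is the mean with its SD (n = 3), and each vertical axis starts at 0 with its own scale. AREG goes from 0.897 to 1.36 CPM in sh-ctrl to 6.93 to 9.99 CPM in sh-KIF11, TGFA overlaps between the groups, and BTC is at 0 throughout.

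Of the ligands, AREG and EREG rose from low levels, TGFA and HBEGF did not pass the test, and BTC was not detected. AREG, the EGFR ligand amphiregulin, had 16, 22 and 23 counts in sh-ctrl against 139, 188 and 197 in sh-KIF11. These counts gave 0.897, 1.22 and 1.36 CPM against 6.93, 9.08 and 9.99 CPM. The lowest sh-KIF11 library was thus well above the highest sh-ctrl library. The mean rose from 1.16 ± 0.238 to 8.67 ± 1.57 CPM, 7.45-fold by the fit, with a log2 fold change of 2.90 (standard error 0.205, 95% interval 2.48 to 3.31, adjusted p = 3.80e-16, edgeR). Only 1.34% of the tested genes had a larger positive change, and the AREG value lay between 1.97 and 3.13 over the alternatives.

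EREG, or epiregulin, had 1, 0 and 0 counts in sh-ctrl against 14, 14 and 23 in sh-KIF11. It entered the test through the sh-KIF11 libraries alone. The filter thus selected it for its level there, and its call was not free of the filter. The pooled count ratio, scaled by library size, was 44.5 with an exact 95% interval of 7.63 to 1791 that covers counting error only, from 51 counts against 1. The call had an adjusted p of 8.14e-07 (edgeR), while the fitted change rests on the count added to 0 and is not used as a size. Per length, EREG stayed the lowest of the detected ligands among the 8 genes in sh-KIF11, at 0.257 ± 0.0804 FPKM.

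TGFA, an EGFR ligand that many carcinoma lines make for themselves, was the main ligand mRNA in sh-ctrl. It gave 22.2, 19.0 and 27.3 CPM in sh-ctrl and 23.0, 24.4 and 24.7 CPM in sh-KIF11. The sh-KIF11 libraries fell inside the wider sh-ctrl range. Its log2 fold change was 0.08 (standard error 0.0925, 95% interval -0.11 to 0.27, adjusted p = 0.459, edgeR). Individual sh-ctrl libraries decided this value, which was -0.035 without the second (adjusted p = 0.761) and 0.22 without the third (adjusted p = 0.0237, edgeR), and library totals alone gave 0.31 (adjusted p = 0.00270, edgeR).

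HBEGF, the heparin-binding ligand, had 45, 50 and 39 counts in sh-ctrl against 64, 71 and 58 in sh-KIF11. The corresponding 2.52, 2.77 and 2.31 CPM and 3.19, 3.43 and 2.94 CPM did not overlap. At this depth the log2 fold change of 0.33 (standard error 0.212, 95% interval -0.10 to 0.76) missed the threshold (adjusted p = 0.165, edgeR). It passed with library totals alone at 0.56 (adjusted p = 0.0173, edgeR) and on the FPKM values at 0.24 with a pseudocount of 1 (adjusted p = 0.00459, limma) and 0.45 with a pseudocount of 0.1 (adjusted p = 0.00820, limma). BTC, betacellulin, had 0 counts in all 6 libraries, where 0 allows up to 3 counts, or 0.145 to 0.178 CPM depending on the library.

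Read together with the whole table, 3 of the 8 genes passed as higher and 2 as lower, 2 tested genes did not pass and BTC was not tested. The 3 include EREG, which could pass the filter only where it was high. Of the 12369 tested genes, 69.1% passed in either direction, 34.4% as higher and 34.7% as lower, so 5 of the 7 tested members is near the background. For 6 of the 7 tested members the groups were fully separated, with 4 higher and 2 lower in sh-KIF11. The 4 again include EREG. Full separation was seen for 71.2% of all tested genes, 35.4% higher and 35.8% lower. The labels do not say whether the 3 libraries of a group came from separate cultures, so the p-values measure the spread between these libraries, which may be technical.

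**Figure D2:**
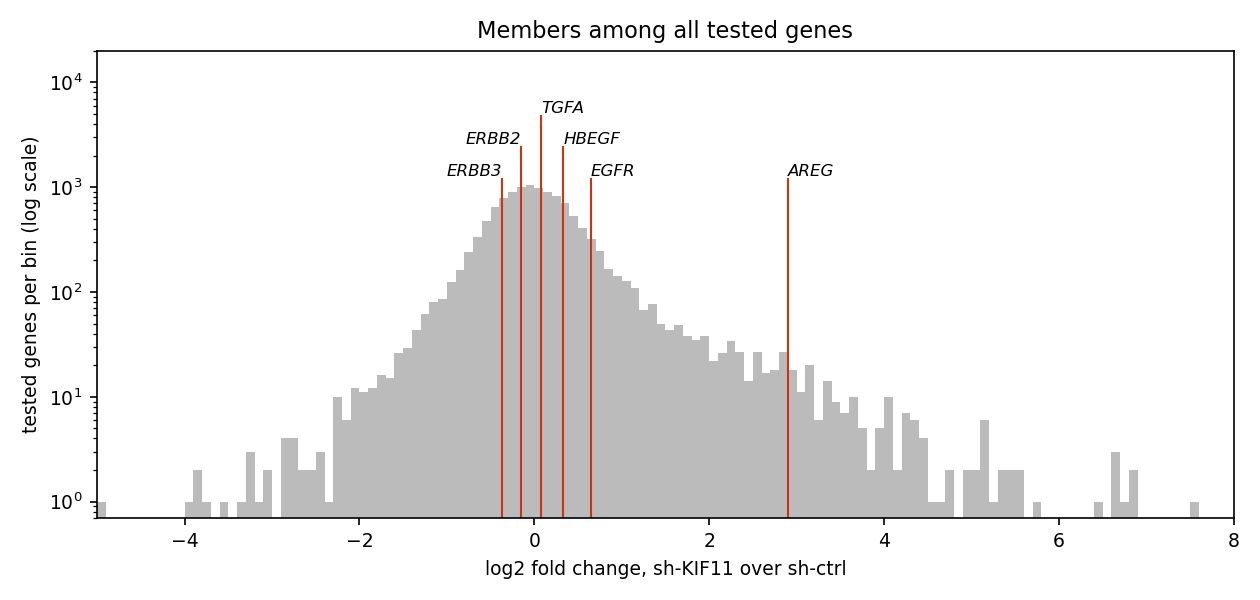
Histogram of log2 fold changes (sh-KIF11 over sh-ctrl) of the 12369 tested genes in bins of 0.1, with the number of genes on a log axis; red lines mark 6 members. EREG is left out because its sh-ctrl libraries hold 1 count. ERBB3, ERBB2, TGFA, HBEGF and EGFR lie within the body of the distribution and AREG, at 2.90, in its upper tail.

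**Figure D3:**
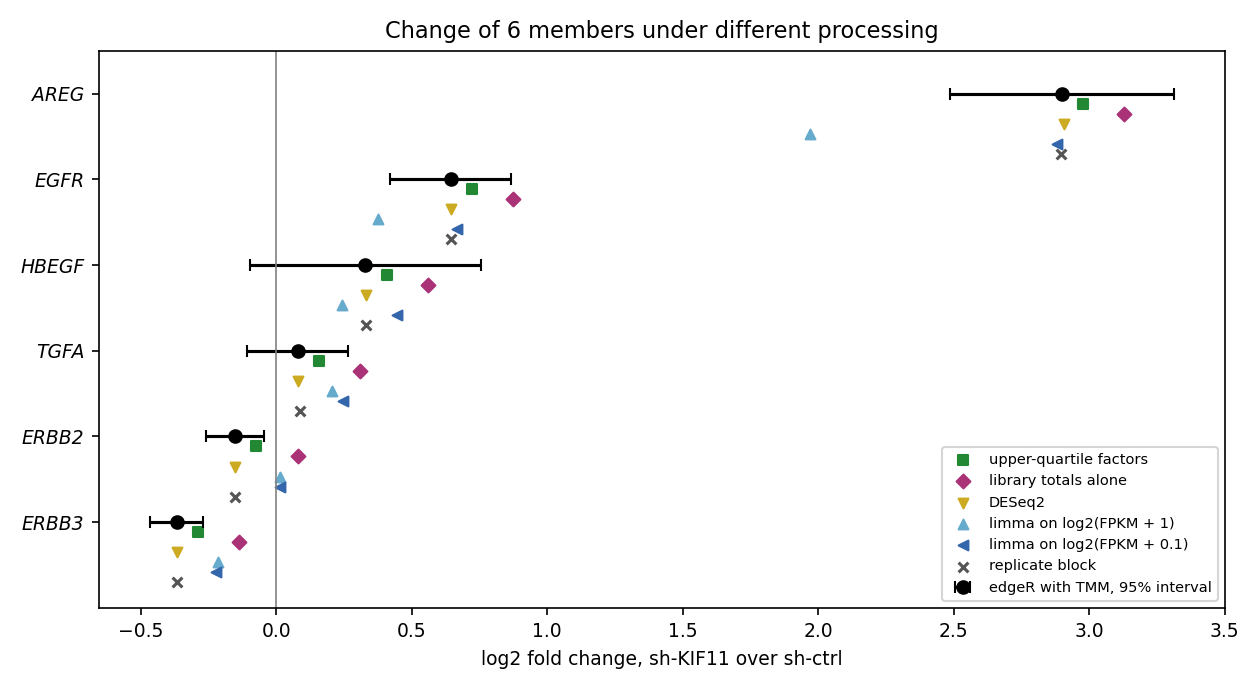
Log2 fold changes of 6 members by edgeR with TMM factors (black points, bars for the 95% interval) and by 6 other ways of processing, offset downwards. Scaling by library totals moves each gene to the right, past 0 for ERBB2, while AREG, EGFR and ERBB3 stay on their side of 0.

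On the FPKM scale the ligands can be set beside one another. In sh-ctrl the order was TGFA (4.33 ± 0.721 FPKM), HBEGF (0.849 ± 0.107), AREG (0.667 ± 0.106), EREG (0.00537 ± 0.00930) and BTC (0), with overlapping ranges for HBEGF and AREG and for EREG and BTC. In sh-KIF11 it was AREG (5.58 ± 1.15), TGFA (5.12 ± 0.239), HBEGF (1.19 ± 0.0661), EREG and BTC, and the AREG and TGFA ranges overlapped. In sh-KIF11 the levels of AREG and TGFA thus did not differ beyond the spread of the libraries. The ratio of AREG to TGFA was 0.129, 0.192 and 0.148 in sh-ctrl against 0.897, 1.11 and 1.25 in sh-KIF11. Its rise from 0.156 ± 0.0325 to 1.09 ± 0.177 was seen in all 3 sh-KIF11 libraries (p = 0.1, exact permutation test). Since AREG was already separated between the groups and TGFA was not, this ratio restates the rise of AREG and is not separate support.

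The summed FPKM of the ligands went from 5.85 ± 0.653 in sh-ctrl to 12.1 ± 1.38 in sh-KIF11, while that of the receptors went from 46.0 ± 1.42 to 42.5 ± 1.09. Neither pair of groups overlapped. AREG made up 11.4% ± 1.83 of the ligand sum in sh-ctrl and 45.6% ± 4.42 in sh-KIF11. The share of TGFA moved the other way, from 73.7% ± 4.26 to 42.3% ± 2.94, although its own level did not pass the test. HBEGF made up 14.8% ± 3.35 and 9.91% ± 1.72, with overlapping libraries, and EREG 0.0941% ± 0.163 and 2.10% ± 0.472. Among the receptors the order ERBB3 (29.8 ± 1.09 and 25.5 ± 0.649 FPKM), ERBB2 (15.4 ± 0.735 and 15.5 ± 0.609) and EGFR (0.843 ± 0.127 and 1.39 ± 0.127) was the same in both groups, and no neighbouring ranges overlapped. These FPKM values carry no correction for composition. The median change of all tested genes was 0.116 on the log2(FPKM + 1) scale and 0.169 on the log2(FPKM + 0.1) scale.

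**Figure D4:**
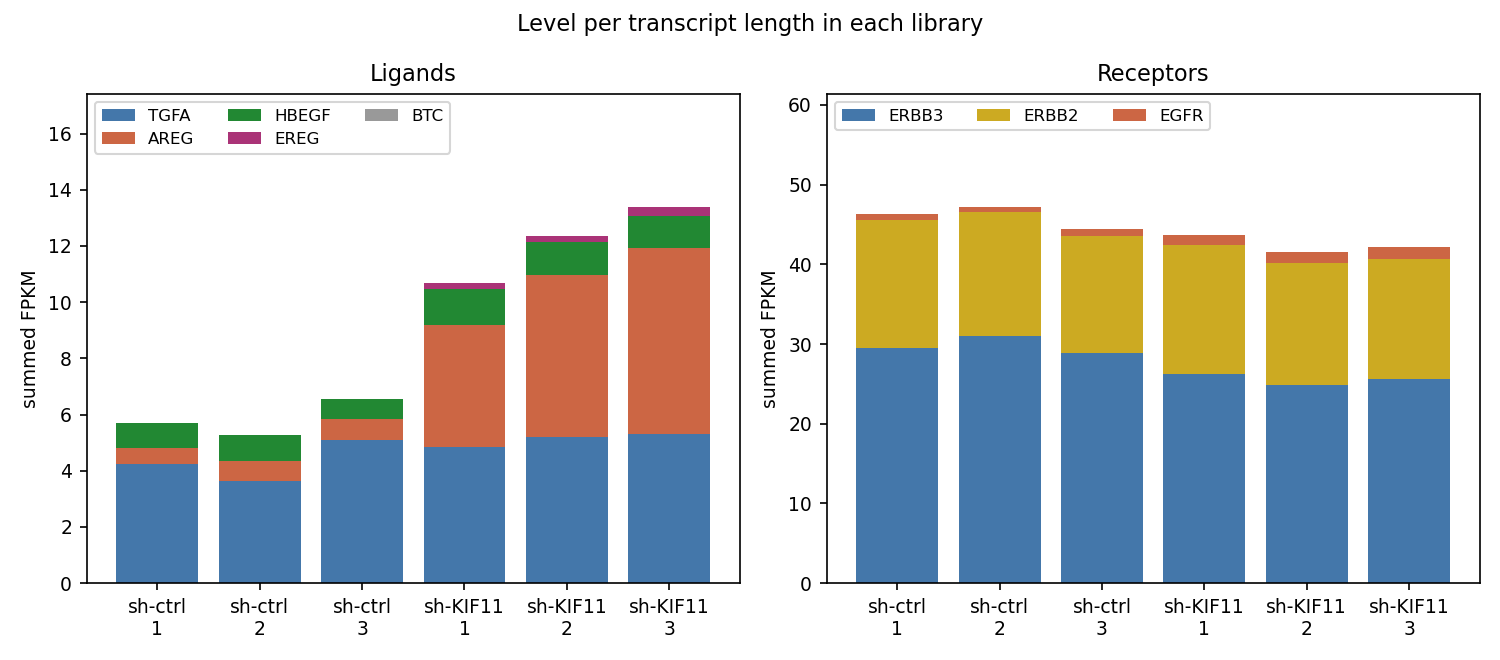
FPKM of the ligands (left) and receptors (right) stacked in each of the 6 libraries; colours mark genes and both axes start at 0. The ligand sum is between 5.28 and 6.56 in sh-ctrl and between 10.7 and 13.4 in sh-KIF11, with AREG as the largest part of the difference, and the receptor sum is between 41.5 and 47.2 in all libraries.

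Of the rest of the family, NRG1 alone had enough reads to be tested. NRG1, a neuregulin that binds ERBB3 and ERBB4, had 4, 1 and 7 counts in sh-ctrl against 71, 102 and 111 in sh-KIF11. Its level was 0.231 ± 0.180 CPM in sh-ctrl and 4.70 ± 1.06 CPM in sh-KIF11. Like EREG, it entered the test through the sh-KIF11 libraries alone, so its call was not free of the filter. Its log2 fold change of 4.33 is given as a description. On the FPKM scale NRG1 reached 0.279 ± 0.0681 in sh-KIF11, close to EREG (0.257) and below HBEGF, TGFA and AREG. ERBB4, the receptor shared by EREG, HBEGF and the neuregulins, had 1, 0 and 2 counts against 2, 4 and 6 and was too low to be tested, with a pooled count ratio of 3.49 (exact 95% interval 0.942 to 19.3). EGF itself had 6, 4 and 6 counts against 3, 3 and 2, NRG4 had 2, 4 and 0 against 5, 2 and 4, NRG2 had 1 count in 1 library, and EPGN and NRG3 had none.

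Genes that act on the ligand precursors passed about as often as genes in general. Of 11 genes for ligand release, 10 were tested, and 4 were higher, 3 were lower and 3 did not pass, with a median log2 fold change of 0.10 (0.00 over all tested genes). This is 70% passing in either direction, against 69.1% of all tested genes. The 4 higher genes include ADAM19, at 0.268 CPM in sh-ctrl and 1.02 CPM in sh-KIF11. ADAM19 entered the test through the sh-KIF11 libraries alone, so its call was not free of the filter. ADAM17, the main sheddase of AREG and TGFA, ADAM10 and FRMD8, which stabilizes the sheddase complex, were the 3 that did not pass, named after their values were seen. ADAM17 was at 49.4 and 52.9 CPM (log2 fold change 0.10, adjusted p = 0.174, edgeR). RHBDF1 and RHBDF2, which encode the iRhom partners that bring ADAM17 to the cell surface, rose by 0.92 and 0.47 on the log2 scale, and ADAM9 rose by 0.38. TIMP3, an inhibitor of ADAM proteases, fell from 60.9 to 24.1 CPM (log2 fold change -1.34, adjusted p = 1.65e-19, edgeR), and ADAM15 and RHBDL2 had log2 fold changes of -0.97 and -1.26.

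Downstream of the receptors no common direction was seen. Of 35 adaptor and cascade genes, 34 were tested, 13 were higher, 11 were lower and 10 did not pass, with a median of 0.04, so 70.6% passed against 69.1% of all tested genes. PLCG1, the phospholipase that binds activated EGFR, rose by 0.70 and BRAF by 0.58, while the kinases MAP2K2, MAPK3 and AKT2 had log2 fold changes of -0.60, -0.55 and -0.51. Of 19 genes of receptor down-regulation, 18 were tested, 9 were higher, 5 were lower and 4 did not pass, with a median of 0.14, so 77.8% passed against the same 69.1%. SOCS4, the ubiquitin ligase CBLB and the sorting protein STAM2 rose by 0.79, 0.64 and 0.60, whereas CBLC, the receptor antagonist LRIG1 and the endocytic adaptor EPN1 had log2 fold changes of -1.03, -1.03 and -0.50.

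Genes whose transcription follows ERK activity were also split. Of 18 such genes, 17 were tested, 7 were higher, 5 were lower and 5 did not pass, with a median of -0.11, so 70.6% passed against the same 69.1%. The phosphatase genes DUSP4 and DUSP5, which act on ERK, rose from 1.02 to 7.65 CPM and from 20.3 to 80.1 CPM, with log2 fold changes of 2.89 and 1.98 (adjusted p = 6.36e-16 and 1.80e-25, edgeR), and FOSL1 rose by 0.94. The ETS factors ETV4 and ETV5 fell (log2 fold changes -1.04 and -0.53), as did IER3 (-0.40). The 5 that did not pass, named after their values were seen, were DUSP6 (-0.08), SPRY4 (-0.11), SPRY2 (-0.20), EGR1 (-0.23) and FOS (-0.27). In the KEGG ErbB signaling pathway as annotated in the table, 68 of 85 genes were tested, and the 61 that were not among the 8 genes held 23 higher, 21 lower and 17 that did not pass, with a median of 0.02. Of these 61 genes, 72.1% passed in either direction, against 69.1% of the whole table. The 23 higher genes include NRG1, which entered the test through the sh-KIF11 libraries alone. Library totals alone would add about 0.235, the median shift of all tested genes, to each value.

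**Figure D5:**
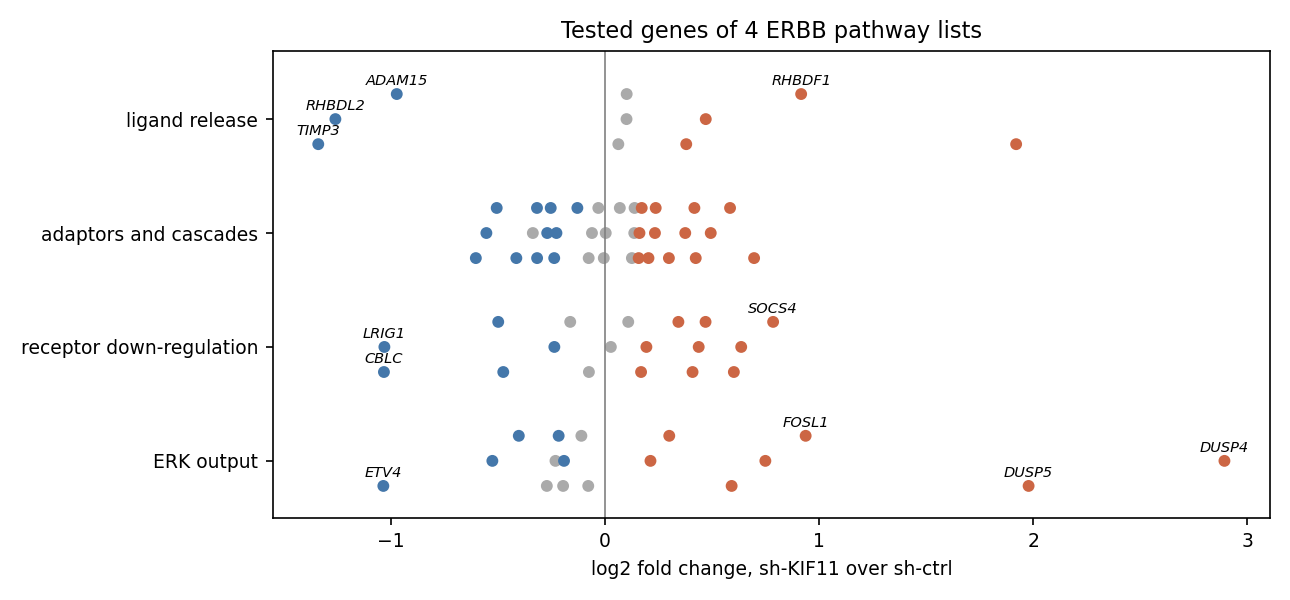
Log2 fold changes (sh-KIF11 over sh-ctrl) of the tested genes in 4 lists, 1 point a gene; orange points are higher and blue points lower at an adjusted p under 0.05 (edgeR), grey points did not pass, and vertical offsets only separate points. Each list has points on both sides of 0, with DUSP4 at 2.89 and DUSP5 at 1.98 farthest to the right in the list of ERK output.

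Genes with a profile like that of EREG were sought by the distance between log2 CPM values with a prior count of 2, centred per gene, over the 6 libraries. The nearest were FAM25A, GBP3 and SOCS2, at distances of 0.406, 0.490 and 0.518, against a median of 3.66 over the tested genes. EREG was taken because its fitted change was the largest among the members. A large distance to most genes was therefore set by that choice, and the median is given as a description. FAM25A had 2, 0 and 0 counts in sh-ctrl against 13, 15 and 24 in sh-KIF11. GBP3 had 4, 2 and 2 against 26, 40 and 41, and SOCS2, a cytokine signaling suppressor, 23, 19 and 16 against 189, 195 and 207. FAM25A and GBP3 entered the test, as EREG did, through the sh-KIF11 libraries alone. The libraries fall into 2 groups of 3, and this distance does not separate a shared step between the groups from shared variation within them.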

How the data were processed

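Stranded poly(A) libraries of 6 HepG2 samples, 3 a group by the sample labels, were analysed. The submitters' processing notes name bcl2fastq 1.8.4, Trimmomatic, HISAT2 2.1.0, Cufflinks 2.2.1, HTSeq 0.9.1, DESeq and the build GRCh38. Unnormalized counts of reads per gene and a table of FPKM, which divides by transcript length and depth, were deposited by the authors. The knockdown columns are named only as shRNA and were taken as sh-KIF11, the single targeting hairpin in the labels. The other columns of the tables are annotation.

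Counts were tested with edgeR 4.0.16 in R 4.3.3 (quasi-likelihood, two-sided, TMM factors, filterByExpr, which left out 7661 genes), with the group as only term and Benjamini-Hochberg adjustment over all tested genes at 0.05. TMM factors were 0.922 to 0.926 in sh-ctrl and 1.08 to 1.09 in sh-KIF11. Library totals of 18167773 to 19583282 put 3 counts at 0.145 to 0.178 CPM, and count intervals cover counting error only. Replicates were not copies of one another (chi-square of counts over its degrees of freedom 2.67 to 8.11 within a group). The highest values, 8.11 and 6.25, were for the third sh-ctrl library against the first and the second. Each library was treated as 1 replicate, although this check does not show that the cultures were separate. Alternatives were RLE, upper-quartile and total scaling, no filter or at least 10 counts in every library, DESeq2 1.42.0, limma 3.58.1 on log2(FPKM + 1) and log2(FPKM + 0.1), a replicate block and each library left out. The procedures were tested on simulated data.

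The members and lists were chosen with earlier results of these data known. Of each pathway list, up to 3 genes a direction were named by the largest change among those that passed, had a mean of at least 1 CPM and did not overlap between groups, and the 3 genes nearest to the member with the largest fitted change. A result that meets this rule is not reported here. Positions and promoters came from RefSeq (GRCh38.p14) and overlaps from GENCODE release 29. Python 3.11.15 with pandas 2.3.3 and matplotlib 3.10.9 was used for these and for figures.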

Additional observations from a re-analysis of the deposited data

How the results depend on the processing

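AREG, EGFR and ERBB3 passed in the same direction under all 15 alternatives. EREG passed the low-count filter only where it was high, and requiring at least 10 counts in every library removed it. The number of the 8 genes passing as higher (3) became 5 with library totals alone, with HBEGF and TGFA added, 4 with limma on FPKM at either pseudocount, with HBEGF added, 2 with at least 10 counts in every library, and 3 to 4 with 1 library left out. The number passing as lower (2) became 1 with upper-quartile factors, library totals, and limma on FPKM at either pseudocount, and 1 to 2 with 1 library left out. In these settings the gene lost was ERBB2, which reversed to 0.078 with library totals and to 0.014 and 0.015 with limma on log2(FPKM + 1) and log2(FPKM + 0.1). TGFA reversed to -0.035 without the second sh-ctrl library, with no call, and reached 0.22, a call, without the third. Over the whole table, genes higher (4254) became 6621 with library totals, and 3960 to 4428 with 1 library left out. Genes lower (4294) became 2373 with library totals and 2596 and 2597 with limma on log2(FPKM + 1) and log2(FPKM + 0.1), and 4002 to 4321 with 1 library left out. The cause was not tested. By the labels, libraries with the same replicate number have only that number in common. Correlations of their deviations were 0.030, -0.018 and -0.0025, which cannot exclude a shared preparation. With the replicate block the counts were 3 and 2 of the 8 genes and 4296 and 4311 over the table, higher and lower. No call of a member changed. Depth limits HBEGF, at 39 to 71 counts, and EREG, whose sh-ctrl libraries held 1 count in all.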

Other observations

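The region around EREG and AREG on chromosome 4 holds other secreted factors, examined because of its position after the values of AREG and EREG were known. Within 1 Mb on each side, 19 genes of the table were found, of which 10 were tested, 6 were higher in sh-KIF11, 2 were lower and 2 did not pass, while 34.4% of all tested genes were higher and 34.7% lower. The 6 include EREG and AREG, which led to the choice of the window. CXCL1, CXCL5 and AFM, also among the 6, could not have passed the low-count filter on their sh-ctrl libraries alone. The count of 6 thus depended on the choice of the window and on the filter, and is not read as a result about the region. Besides EREG and AREG, the higher genes were the neutrophil-attracting chemokine genes CXCL8, CXCL1 and CXCL5 and the albumin-family gene AFM. CXCL8 had 93, 103 and 105 counts in sh-ctrl against 507, 585 and 757 in sh-KIF11 (log2 fold change 2.42, adjusted p = 7.56e-21, edgeR). CXCL5 had 4, 8 and 5 counts against 37, 27 and 55, and CXCL1 had 2, 1 and 3 against 11, 12 and 18. Like EREG, CXCL5 and CXCL1 entered the test through the sh-KIF11 libraries alone, so their calls were not free of the filter. AFM had 13, 9 and 9 counts against 36, 11 and 26, with overlapping libraries (adjusted p = 0.0196, edgeR). Its entry into the test also depended on the sh-KIF11 libraries, so this call was not free of the filter.

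The neighbours did not all move this way. ALB and AFP, at the far end of the window, fell, with log2 fold changes of -1.49 and -1.23. MTHFD2L, which lies between the chemokine genes and EREG, had a log2 fold change of -0.02 (adjusted p = 0.879, edgeR) and RASSF6 had 0.39 (adjusted p = 0.346, edgeR). CXCL2 had 10, 6 and 7 counts against 27, 2 and 9 and was not tested, and 5 genes of the window, BTC and EPGN among them, had no count in any library. Whether the position of these genes bears on their change was not tested.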
